A study of Mus musculus with 15 samples.

Results

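ProNeut and PreNeut are 2 subsets of neutrophil progenitors sorted by flow cytometry from the fresh bone marrow of healthy mice, labelled ProNeut_Neutrophil and PreNeut_Neutrophil and shortened here to ProNeut and PreNeut. They make up 6 of the 15 libraries of the series, 3 of each, and are compared here by the columns that carry their names, with the spread between replicates taken from these 6 libraries alone. The other 9 libraries came from common myeloid progenitors, CD115-positive granulocyte-monocyte progenitors and marrow neutrophils. Of the 14298 genes in the table that have a symbol, 8855 were tested, those with a log2 CPM (CPM is the read number relative to the whole library) above 1 in at least 3 of the 6 libraries. The labels give no treatment, and strain, age and sort gates are not given either. Whether the 3 libraries of a subset came from separate animals is not stated, so p-values speak only of the spread among these libraries, and that spread may be technical. The labels do not say which subset comes first in development.

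Neutrophils fill their granules in waves. The azurophilic granules, which carry myeloperoxidase and the serine proteases, are made at the promyelocyte stage, the specific granules, with lactoferrin and lipocalin 2, at the myelocyte stage, and the gelatinase granules and the receptors of the mature cell later still. Division ends between the myelocyte and metamyelocyte stages, so the order of granule genes is read together with the genes of DNA replication and mitosis.

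The 6 libraries held 7493694 to 68171606 reads over the genes of the table, with PreNeut 3 the deepest and ProNeut 1 the shallowest. Correlations of log2 CPM over the tested genes were 0.971 to 0.987 within PreNeut, 0.985 to 0.987 within ProNeut and 0.901 to 0.940 between the subsets. PreNeut 3 stood apart within its group. Although it was the deepest library, it had 0 reads in 2457 genes, against 1707 and 1942 in PreNeut 1 and 2, and 647 genes with reads in both of those had none in PreNeut 3. Of these 647 genes, 5 passed the filter on low values. Over the tested genes PreNeut 3 still stood apart, at correlations of 0.973 and 0.971 with PreNeut 1 and 2, against 0.987 between those, and the number of called genes without PreNeut 3 was 1493 higher and 1549 lower. Mitochondrial transcripts took 2.03% to 2.23% of reads in PreNeut and 0.983% to 1.28% in ProNeut. The most abundant gene of each library, Ngp, took 7.29% to 8.30% of reads. These shares are of the reads over the genes of the table, not of the library size behind the CPM.

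Both subsets expressed defining genes of the neutrophil lineage. Values are log2 CPM in libraries 1, 2 and 3 of each subset, and where they are joined by against or to, PreNeut comes first. Ngp, which encodes neutrophilic granule protein, stood at 15.21, 14.99 and 15.18 log2 CPM in PreNeut and 15.26, 15.17 and 15.39 in ProNeut. Cebpe, the transcription factor of specific granule formation, was at 8.16, 8.07 and 8.24 against 8.13, 8.12 and 8.34, and Gfi1, a repressor needed for granulocyte commitment, at 5.94, 5.64 and 5.86 against 5.54, 5.60 and 5.58. Neither transcription factor passed the test (adjusted p = 0.73 and 0.061, limma with Benjamini-Hochberg adjustment, used throughout). Csf3r, the receptor for granulocyte colony-stimulating factor, was well expressed in both and somewhat higher in ProNeut, at 7.41, 7.44 and 7.35 against 8.21, 7.88 and 7.89 with no overlap (difference 0.59 ± 0.09 SE, adjusted p = 8.1e-06). Of the monocyte genes, Csf1r, the receptor for colony-stimulating factor 1, was near the filter, at 0.47, 2.29 and 1.27 against 1.76, 1.81 and 1.99 (adjusted p = 0.28).

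Between the subsets, 1498 genes rose in ProNeut (16.9% of those tested) and 1738 fell (19.6%), 36.5% in all, at an adjusted p under 0.05. Most of these differences were moderate: 2566 of the 3236 were under 1 log2 unit, a 2-fold change, and 670 genes (7.57% of those tested) reached it, 320 higher and 350 lower. The median absolute difference of called genes was 0.59 and the smallest 0.20. In 4130 of the tested genes (46.6%) the groups did not overlap, and in 3089 of the 3236 called. Absence of overlap in a called gene, where given below, therefore adds little to its call. The median difference over all tested genes was -0.02. The list counts below are to be read beside the 16.9% of tested genes called higher and the 19.6% called lower. The largest changes were mostly increases, with 105 genes rising by at least 2 log2 units against 36 falling, and 46 against 12 at 3 units. The log2 CPM given to 0 reads differed by library, at -5.76, -5.67 and -8.14 in PreNeut and -4.90, -5.39 and -5.69 in ProNeut. The part of this floor in these counts was not tested. The share called rose with level up to a point. Among genes with a mean log2 CPM of 7 to 9, 54.4% were called, with a median SE of 0.084, against 28.6% at 3 or below, with a median SE of 0.26. Above 9 the share was 38.1%. Of the tested genes, 95 passed the filter in PreNeut alone and 92 in ProNeut alone. Such genes were tested because they are higher in that subset, so counts over them add no support. Among the genes named below, those of ProNeut include Arg2, Car1, Clec4d, Dusp1, Ermap, Ifitm1, Il1b, Prok2, Rsad2, Tlr5 and Tlr8. Those of PreNeut include Cd48, Cpa3, Cst7, Igkc, Mcpt8, Nme2, Orc1, Prss34 and Shmt1.

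**Figure D1:**
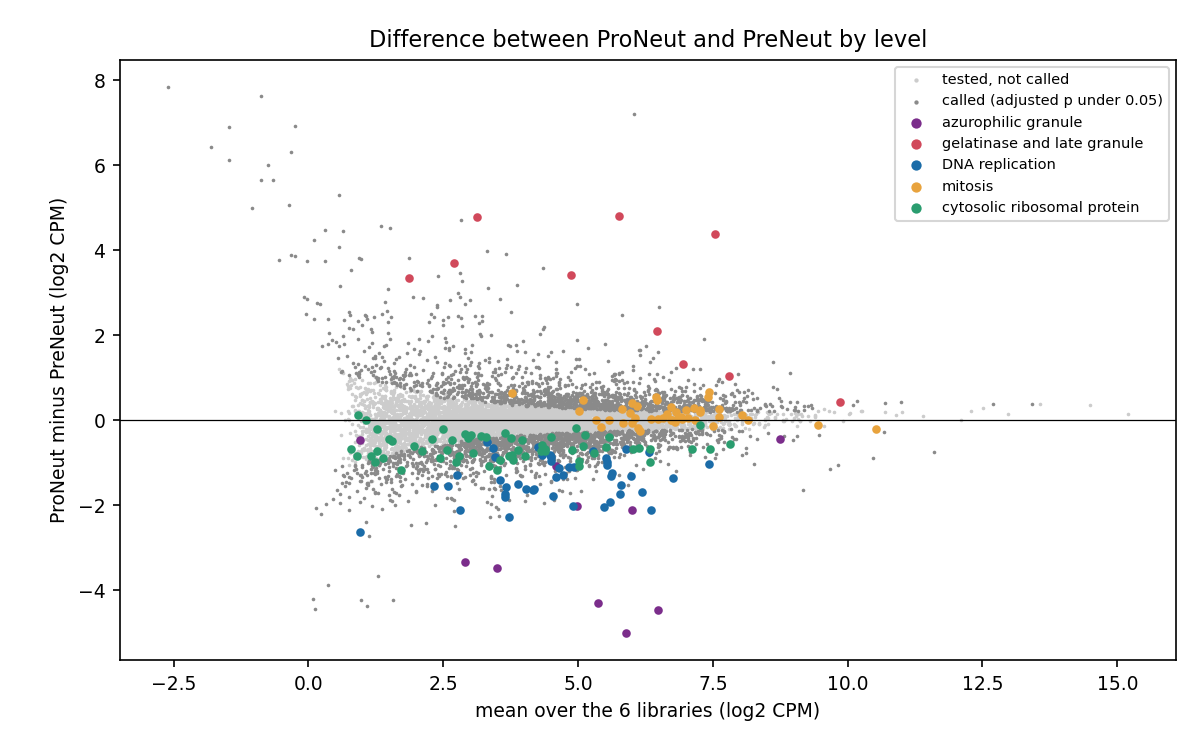
Difference between the subsets (ProNeut minus PreNeut, log2 CPM) against the mean log2 CPM over the 6 libraries for the 8855 tested genes, with called genes in dark grey and members of 5 gene lists in colour. Azurophilic granule and DNA replication genes lie below 0, gelatinase and late granule genes above 0, and mitosis genes along 0.

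The azurophilic granule genes were higher in PreNeut. Of 10 members tested, 9 fell in ProNeut and none rose, with a median difference of -2.72 against -0.02 over all genes. Elane, neutrophil elastase, had the largest fall among genes with a mean above 5, with 8.58, 8.23 and 8.37 log2 CPM in the 3 PreNeut libraries and 3.13, 4.40 and 2.67 in the 3 ProNeut libraries. The groups lay far apart, a 31.9-fold difference (log2 -5.0 ± 0.23 SE, adjusted p = 5.8e-15). Prtn3, proteinase 3, went from 7.64, 7.31 and 7.58 to 2.76, 4.08 and 2.80, a 19.6-fold difference (adjusted p = 1.0e-14). Mpo, myeloperoxidase, stood at 8.90, 8.70 and 8.55 in PreNeut and 4.22, 5.79 and 2.77 in ProNeut (22-fold, adjusted p = 3.1e-10), and Ctsg, cathepsin G, at 5.32, 5.28 and 5.14 against 1.87, 3.50 and -0.08 (11.2-fold, adjusted p = 6.5e-07). In all 4 of these genes the PreNeut libraries lay close together while the ProNeut libraries were spread, with ProNeut 2 the highest and, for Mpo and Ctsg, an SD of 1.51 and 1.79 within ProNeut. ProNeut 2 was also the highest of the ProNeut libraries for Cst7, cystatin F, an inhibitor of cysteine cathepsins, at 3.34, 3.33 and 3.12 against -3.32, 0.76 and -0.74 (difference -4.36 ± 0.59 SE, adjusted p = 2.0e-06). In a bulk sample, fewer cells with a transcript and less of it in each cell cannot be told apart. The number of members called lower was 9 without any 1 of the 6 libraries.

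The other azurophilic genes fell less. Ms4a3, a membrane protein of granulocyte-monocyte precursors, was at 7.11, 6.94 and 7.12 in PreNeut and 4.83, 5.06 and 4.97 in ProNeut, a 4.29-fold difference with an SD of 0.10 in PreNeut and 0.12 in ProNeut (adjusted p = 4.6e-15). Srgn, the serglycin core protein on which granule proteases are stored, was at 6.15, 5.89 and 5.90 against 3.70, 4.03 and 4.18 (4.03-fold, adjusted p = 1.7e-12). Nkg7, a granule membrane protein, fell by 3.34 on the log2 scale, from 4.86, 4.42 and 4.44 to 1.70, 1.55 and 0.46. Ctsc, the peptidase that activates the granule serine proteases, was the one tested member not called, at 1.23, 0.87 and 1.5 against -0.26, 1.05 and 1.38 (adjusted p = 0.41).

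Promoter windows from RefSeq (GRCm38.p6, 250 bases before to 50 after each start) were searched on both strands for words of factor families known in this lineage. The 8-letter word GAGGAAGT, of the type bound by PU.1, occurred in the windows of 4 of the 8 azurophilic genes that have one, against 3.69% of all 27025 genes with a window. Among tested genes the word was in 4.08% of windows, in 3.38% for genes called lower and in 5.76% for genes called higher. Shown are the stretches that hold it, 60 bases each, on the strand of the gene and with the word or its reverse complement in capitals, because 3 of these genes are among the steepest falls of the comparison and the other, Ctsc, is the one member that did not pass the test. A match is a description of the letters and not a bound site. The word TTNNGNAA, of the type bound by C/EBP factors and short enough to be frequent, occurred in 2 of these 8 windows, in 9 of 12 for the specific granule list and in 8 of 10 for the gelatinase list, against 44.1% of all windows and 35.5% of those of tested genes.
Elane (chr10:79886201-79886260, plus strand): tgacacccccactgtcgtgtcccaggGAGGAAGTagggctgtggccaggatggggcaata
Prtn3 (chr10:79879546-79879605, plus strand): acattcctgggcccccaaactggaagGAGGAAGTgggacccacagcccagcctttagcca
Mpo (chr11:87793534-87793593, plus strand): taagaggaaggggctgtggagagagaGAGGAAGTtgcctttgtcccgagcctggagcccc
Ctsc (chr7:88277908-88277967, plus strand): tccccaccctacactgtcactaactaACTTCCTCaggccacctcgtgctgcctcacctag

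The specific granule genes included the most abundant transcript of both subsets, Ngp, and mostly differed little. Of 15 tested, 7 rose and no member fell, at a median difference of 0.23; the number was 4 without PreNeut 2, PreNeut 3 or ProNeut 3. Camp, the cathelicidin precursor, was at 13.03, 12.69 and 12.96 against 12.96, 12.99 and 13.17 and Chil3, a chitinase-like protein, at 12.10, 11.99 and 12.19 against 12.02, 12.07 and 12.22, with overlapping groups and adjusted p of 0.4 and 0.98. Ltf, lactoferrin, was at 13.27, 13.14 and 13.25 in PreNeut and 13.69, 13.49 and 13.64 in ProNeut, without overlap (difference 0.39 ± 0.13 SE, adjusted p = 0.024), and Lcn2, lipocalin 2, at 12.56, 12.32 and 12.60 against 12.83, 12.74 and 13.06 (difference 0.38 ± 0.13 SE, adjusted p = 0.019). Both calls are fragile: Ltf lost its call without any library of either group other than ProNeut 2, and Lcn2 without any PreNeut library or without ProNeut 3. Olfm4, olfactomedin 4, which marks a subset of neutrophils, rose more clearly, from 6.96, 6.89 and 6.83 to 7.81, 7.63 and 7.73 (adjusted p = 1.2e-08), and so did Cd177, a surface protein kept in specific granules, from 10.52, 10.43 and 10.53 to 10.96, 10.78 and 10.98 (adjusted p = 9.7e-04). Lyz2, lysozyme, was at 12.56, 12.17 and 12.37 against 12.76, 12.54 and 12.69 (adjusted p = 0.061).

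One gene of the specific granule list behaved unlike the rest. Mmp8, neutrophil collagenase, stood at 2.74, 2.07 and 2.5 log2 CPM in PreNeut and 9.80, 9.40 and 9.72 in ProNeut. That is a 147-fold difference, the largest among genes with a mean above 5 (log2 7.20 ± 0.13 SE, adjusted p = 3.8e-24).

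**Figure D2:**
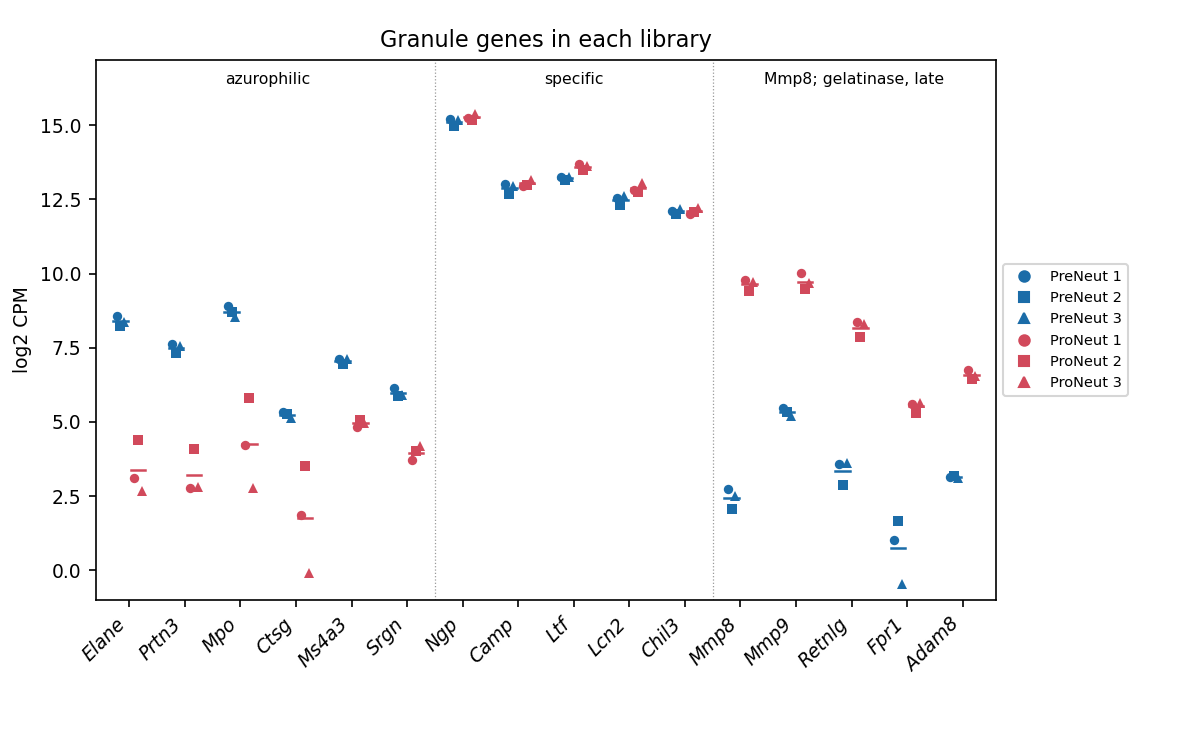
Log2 CPM of 16 granule genes in each of the 6 libraries, PreNeut in blue and ProNeut in red, with a bar at the mean of each group and a symbol for each replicate. Azurophilic genes are lower in ProNeut with spread libraries for Elane, Prtn3, Mpo and Ctsg, the specific granule genes from Ngp to Chil3 lie at nearly the same level, and Mmp8 and the gelatinase and late genes are higher in ProNeut.

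Every tested gene of the gelatinase and late granule list rose, 10 of 10, with a median difference of 3.39. Mmp9, gelatinase B, after which the granules are named, went from 5.48, 5.32 and 5.21 to 10.04, 9.47 and 9.69, a 21-fold rise (adjusted p = 6.3e-21). Retnlg, a resistin-like secreted protein of mature neutrophils, went from 3.57, 2.89 and 3.61 to 8.36, 7.86 and 8.30 (28.2-fold, adjusted p = 7.0e-19). Adam8, a sheddase of selectins and other surface proteins, was at 3.14, 3.19 and 3.11 against 6.75, 6.44 and 6.54 (10.8-fold, adjusted p = 4.6e-18). In each of these genes the groups were separated by more than 3 log2 units and the 3 libraries of a group lay within 1 unit of each other. Adam19, another sheddase, rose by 3.71 and Slc11a1, the metal transporter of phagosomes, by 3.35. Mmp25, a membrane-anchored metalloproteinase, changed less, from 6.23, 6.29 and 6.32 to 7.82, 7.41 and 7.60, as did Padi4, the peptidylarginine deiminase that citrullinates histones, from 7.31, 7.20 and 7.31 to 8.43, 8.25 and 8.27. Itgam, the CD11b integrin chain, was already high in PreNeut and rose by 0.44 (adjusted p = 3.6e-04).

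The chemoattractant receptors that guide a neutrophil mostly rose with these granule genes, while integrin and selectin adhesion genes went both ways. Fpr1, the high-affinity formyl peptide receptor, was at 1.03, 1.65 and -0.45 in PreNeut and 5.62, 5.31 and 5.64 in ProNeut (27.5-fold, adjusted p = 3.1e-12), and Fpr2, its lower-affinity relative, at 5.55, 5.24 and 5.45 against 7.48, 7.39 and 7.68 (4.29-fold, adjusted p = 6.3e-15). Of the 9 formyl peptide, complement and lipid receptors tested, 7 rose and none fell. Cxcr2, the chemokine receptor that draws neutrophils out of the marrow, went from 5.22, 5.11 and 5.60 to 6.98, 6.79 and 7.13, a 3.16-fold rise (adjusted p = 1.1e-11). Cxcr4, which retains them there, was high in both subsets and also rose, though by only 0.28 ± 0.08 SE, from 7.75, 7.60 and 7.60 to 7.95, 7.86 and 7.98 (adjusted p = 0.0074). Of 16 integrin and selectin adhesion genes tested, 8 rose and 5 fell, with differences from -0.79 to 0.85. Among those that rose, Selplg, the selectin ligand PSGL-1, went from 6.05, 5.71 and 5.90 to 6.82, 6.50 and 6.79, and the groups did not overlap (adjusted p = 5.6e-07).

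Among 22 cytokine receptors and their decoys, 10 rose and 3 fell. Il1rn, the interleukin-1 receptor antagonist, rose by 2.15 and Il17ra, an interleukin-17 receptor chain, by 0.97, from 5.88, 5.94 and 5.93 to 7.05, 6.82 and 6.81. Tnfrsf1b, a receptor for tumour necrosis factor, fell by 1.10 on the log2 scale, from 5.26, 5.42 and 5.25 to 4.35, 4.28 and 3.99 (adjusted p = 5.0e-08). Kit, the stem cell factor receptor of progenitors, was present in both and modestly lower in ProNeut, at 5.54, 5.59 and 5.16 against 5.11, 4.91 and 4.96 (difference -0.44 ± 0.12 SE, adjusted p = 0.0041). Of 6 Fc receptor genes, 5 rose, with the inhibitory receptor Pirb at 5.62, 5.70 and 5.72 against 7.35, 7.18 and 7.31 and Fcgr4, an activating IgG receptor, at 3.38, 3.13 and 3.74 against 4.52, 4.62 and 4.77. Of 14 C-type lectin and Siglec genes, 11 rose and 1 fell (none without PreNeut 3, ProNeut 1 or ProNeut 2), with the rises including Clec4e, the Mincle receptor of microbial glycolipids (1.78), and Cd300ld (2.22). In both the Fc receptor and the lectin list, the rises include genes that passed the filter through ProNeut alone, which add no support to these counts. With log2 CPM above 4 in at least 3 libraries, 4 of 5 Fc receptor genes and 7 of 9 lectin and Siglec genes rose. No member of either list fell at that filter.

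Surface genes used in neutrophil sorting differed too. Ly6g, the antigen of mature mouse neutrophils, was at 5.20, 5.08 and 5.24 in PreNeut and 7.86, 7.67 and 7.96 in ProNeut, a 6.3-fold difference (adjusted p = 1.3e-17). Cd101, a late neutrophil surface marker, went from 2.58, 2.39 and 2.68 to 3.99, 4.03 and 3.91 (adjusted p = 1.5e-07). Ly6c2, shared with monocytes, did not pass the test, at 8.37, 8.16 and 8.35 against 8.12, 8.15 and 8.41 (adjusted p = 0.6). Of the 21 sort and surface genes tested, 11 rose and 4 fell. The gates are not given in the labels, so which of these genes the sort itself used is not known here.

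Genes of the mature neutrophil mostly rose, but the most abundant of them did not pass the test. Of 23 tested, 17 rose and none fell (median 0.89). The rises include Clec4d and Il1b, which passed the filter through ProNeut alone, so they add no support to the count or median. With log2 CPM above 4 in at least 3 libraries, 13 of 18 rose and none fell (median 0.75). S100a8 and S100a9, the subunits of calprotectin, were among the most abundant transcripts and were not called: S100a8 was at 13.89, 12.72 and 13.49 against 13.75, 13.17 and 14.35, with groups that overlap, and S100a9 at 14.45, 14.11 and 14.39 against 14.61, 14.63 and 14.79 (adjusted p = 0.2 and 0.089). Il1b, interleukin-1 beta, rose from a low level, from -2.06, -0.71 and -0.92 to 1.54, 1.21 and 1.84, with 6, 15 and 74 reads in PreNeut and 43, 48 and 92 in ProNeut (adjusted p = 2.9e-04). Clec4d, a C-type lectin receptor of neutrophils, had 8, 16 and 0 reads in PreNeut and 113, 114 and 222 in ProNeut; its difference of 6.31 was 3.97 without PreNeut 3, the library with none. Of the 6 NADPH oxidase subunits, 3 rose and none fell; 1 rose without PreNeut 2 or ProNeut 3 or with no filter on low values, and 6 with the libraries centred on their medians.

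The transcription factors of granulocyte development divided, with 5 of 18 rising, 6 falling and a median of 0.01. Of all tested genes 16.9% rose and 19.6% fell. Without PreNeut 3 the number of these factors falling was 3. Cebpa, which drives granulocyte-monocyte commitment, was lower in ProNeut, at 3.82, 3.71 and 3.38 against 3.13, 2.84 and 2.45 (adjusted p = 0.001), and Myc, the growth and proliferation factor, at 2.23, 2.74 and 2.15 against 1.25, 1.27 and 0.91 (adjusted p = 0.0012). Mxd1, which competes with Myc for a shared partner and rises as granulocytes differentiate, was higher, at 7.33, 7.34 and 7.59 in PreNeut and 8.54, 8.44 and 8.54 in ProNeut (2.12-fold, adjusted p = 1.7e-10). Thus Myc and Mxd1 moved in opposite directions, each without overlap between the groups. Foxo3, a forkhead factor of quiescence and stress resistance, rose by 1.27, and Per3, a circadian clock gene, fell by 1.51 on the log2 scale.

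The cell cycle genes split by phase. All 46 tested genes of DNA replication fell in ProNeut, with a median difference of -1.32 and a range from -2.62 to -0.52. Of 44 mitosis genes, 13 rose, 1 fell (none without PreNeut 1, PreNeut 3 or ProNeut 2) and 30 were not called, with a median of 0.07 and a range from -0.26 to 0.67. So the highest of the replication differences lay below the lowest of the mitosis differences.

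Mcm6, a subunit of the replicative helicase, was at 7.48, 7.31 and 7.41 log2 CPM in PreNeut and 5.15, 5.35 and 5.38 in ProNeut, a 4.3-fold fall (difference -2.10 ± 0.09 SE, adjusted p = 2.8e-15). Pcna, the sliding clamp of DNA polymerase, was at 6.42, 6.38 and 6.72 against 4.07, 4.77 and 4.58 (4.1-fold, adjusted p = 5.9e-12), and Ccne2, cyclin E2, which starts S phase, at 5.82, 6.05 and 5.90 against 3.51, 4.22 and 3.98 (4.05-fold, adjusted p = 1.1e-11). None of the 3 genes had overlapping groups, which the rule that picked the largest differences requires. Mcm5, another helicase subunit, fell from 7.54, 7.42 and 7.40 to 6.0, 6.22 and 6.04 (adjusted p = 3.3e-12). Cdc6, which loads the helicase, went from 5.05, 4.81 and 4.67 to 2.69, 2.65 and 2.40 (4.8-fold), and Orc1, the largest subunit of the origin recognition complex, from 2.53, 1.88 and 2.38 to -0.15, -0.44 and -0.48. Pole2, a subunit of polymerase epsilon, fell by 2.12 on the log2 scale and Pola1, the catalytic subunit of polymerase alpha, by 1.79. Dnmt1, the maintenance DNA methyltransferase, which acts behind the fork, was highly expressed and fell from 7.90, 7.97 and 7.96 to 6.94, 6.92 and 6.89, with SDs of 0.04 and 0.03 (adjusted p = 1.3e-10).

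Words of the type bound by E2F factors, TTTGGCGC or TTTCCCGC on either strand, occurred in the windows of 12 of 36 DNA replication genes (33.3%), none of 37 mitosis genes, 9.14% of genes called lower and 1.23% of genes called higher. The share was 4.14% over all 7131 tested genes with a window and 1.80% over all genes. The 4 stretches upstream of helicase, polymerase and loading genes below have the word or its reverse complement in capitals and are shown because these replication genes fell; the first holds the word at 2 places.
Mcm6 (chr1:128359719-128359841, minus strand): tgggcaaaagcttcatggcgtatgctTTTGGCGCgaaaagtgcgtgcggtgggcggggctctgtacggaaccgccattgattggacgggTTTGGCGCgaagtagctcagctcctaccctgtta
Mcm5 (chr8:75109334-75109393, plus strand): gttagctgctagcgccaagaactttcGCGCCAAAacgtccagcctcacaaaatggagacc
Pola1 (chrX:93632260-93632319, minus strand): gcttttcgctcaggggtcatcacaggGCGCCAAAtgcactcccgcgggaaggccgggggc
Cdc6 (chr11:98907987-98908046, plus strand): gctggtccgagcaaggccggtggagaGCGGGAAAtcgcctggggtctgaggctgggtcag

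In contrast with these, several abundant proliferation genes of the mitosis list were not called. Mki67, the Ki-67 proliferation antigen, was at 10.53, 10.60 and 10.73 in PreNeut and 10.48, 10.41 and 10.38 in ProNeut (adjusted p = 0.095). Top2a, topoisomerase II alpha, was at 9.45, 9.47 and 9.62 against 9.36, 9.38 and 9.45 (adjusted p = 0.3), and Cdk1, the mitotic kinase, at 6.68, 6.53 and 6.94 against 6.61, 6.68 and 6.89 (adjusted p = 0.95). Ccna2, cyclin A2, was at 7.98, 7.89 and 8.09 against 7.92, 8.11 and 8.28 (adjusted p = 0.34). Among the mitosis genes that changed, Ube2c, the ubiquitin-conjugating enzyme of the anaphase-promoting complex, rose from 7.15, 7.02 and 7.13 to 7.74, 7.69 and 7.89 (difference 0.67 ± 0.08 SE, adjusted p = 5.0e-07), and Cdc20, the activator of that complex, from 6.14, 6.16 and 6.22 to 6.73, 6.65 and 6.78 (adjusted p = 1.4e-05). Ccnb1, cyclin B1, and Cenpf, a kinetochore protein, rose by 0.65 and 0.56, and Hmmr, a spindle protein, by 0.48. The 1 member called lower was Mad2l1, a spindle checkpoint protein (-0.26), and it lost its call without PreNeut 1, PreNeut 3 or ProNeut 2.

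**Figure D3:**
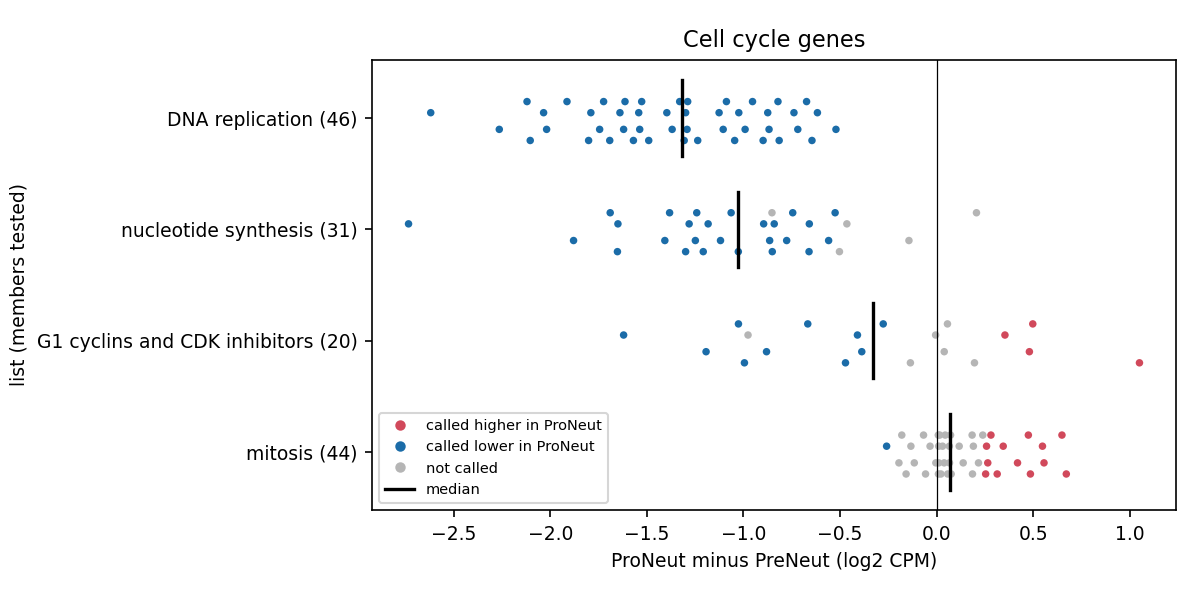
Differences between the subsets (ProNeut minus PreNeut, log2 CPM) for the tested members of 4 cell cycle lists, 1 point per gene, red where called higher, blue where called lower and grey where not called, with a black bar at the median. All DNA replication members lie below -0.5, while the mitosis members lie around 0.

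The genes that supply nucleotides fell with replication, 26 of 31 tested and none higher, with a median of -1.03. Rrm2 and Rrm1, the subunits of ribonucleotide reductase, were among the most abundant of these, with Rrm2 at 7.92, 7.89 and 7.89 against 6.84, 6.89 and 6.89 (adjusted p = 1.1e-10) and Rrm1 at 7.99, 7.92 and 8.07 against 7.02, 7.08 and 7.20 (adjusted p = 3.3e-09). Shmt1, the cytosolic serine hydroxymethyltransferase, had the steepest fall of the list at -2.73, and among the next largest were Nme2 (-1.69), Dut, which removes dUTP (-1.65), and the purine enzyme Paics (-1.65). Slbp, the protein that binds the stem-loop of replication-dependent histone mRNA, fell by 1.06 on the log2 scale, from 6.61, 6.48 and 6.72 to 5.42, 5.54 and 5.68.

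Regulators of the G1 phase fell more often than they rose, 10 of 20 with 4 rising. E2f1, an activator of S phase genes, was at 5.09, 5.05 and 4.86 against 3.26, 3.33 and 3.54 (3.07-fold lower, adjusted p = 3.1e-10). The G1 kinases Cdk6 and Cdk4 fell by 1.19 and 1.03 on the log2 scale, and E2f7, a repressive E2F, by 0.99. Cdc25a, the phosphatase that activates cyclin-dependent kinases at S phase entry, fell from 7.20, 7.19 and 7.18 to 6.10, 6.21 and 6.16, with SDs of 0.01 and 0.05 (adjusted p = 2.4e-10). Btg2, an antiproliferative gene, rose from 4.19, 3.95 and 4.06 to 5.09, 5.08 and 5.17 (adjusted p = 7.8e-08).

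The machinery of protein synthesis was lower in ProNeut across its parts, mostly by less than 1 log2 unit. Of 60 cytosolic ribosomal protein genes tested, among 86 in the table, 39 fell and none rose, with a median of -0.67. Rplp0, an acidic stalk protein, was at 6.83, 6.67 and 7.0 against 5.71, 5.91 and 5.93 (adjusted p = 9.4e-09), and the larger falls of the list were those of Rps19 (-1.18), Rps18 (-1.16), Rplp1 (-1.07) and Rps20 (-1.07). Ribosomal protein genes have many near-identical processed pseudogenes, so how reads were shared among copies is uncertain. Nucleolar genes of ribosome biogenesis fell in 18 of 38, with a median of -0.47, led by Rrs1 (-1.68) and Noc2l (-1.34), with Nop56, a small nucleolar ribonucleoprotein subunit, at -0.94 and Mybbp1a at -0.95. Polr1a, the largest subunit of RNA polymerase I, was the 1 member that rose, from 4.0, 4.02 and 4.04 to 4.95, 4.58 and 4.62 (adjusted p = 1.0e-04).

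Translation factors fell in 31 of 65 and rose in 3. Eef1a1, the abundant elongation factor that delivers aminoacyl-tRNA, was at 8.55, 8.38 and 8.55 against 7.63, 7.74 and 7.84 (difference -0.76 ± 0.08 SE, adjusted p = 8.1e-08), and Eif3b, a scaffold subunit of initiation factor 3, at 6.06, 5.81 and 6.14 against 5.07, 5.13 and 5.01 (adjusted p = 8.0e-08). Aminoacyl-tRNA synthetases fell in 12 of 20, led by Tars (-1.21) and Yars (-1.15), and cytosolic chaperonins and heat shock proteins in 12 of 22. Genes of protein folding and entry in the endoplasmic reticulum fell in 23 of 37 with a median of -0.32. Among them P4hb, protein disulfide isomerase, was at 8.10, 7.98 and 8.0 against 7.28, 7.45 and 7.33 (adjusted p = 3.4e-07), and Sdf2l1, a partner of the luminal chaperone BiP, fell by 1.82 on the log2 scale. No member of the aminoacyl-tRNA synthetase, chaperonin or endoplasmic reticulum lists was called higher. Spliceosome genes fell in 19 of 42 (median -0.29), while proteasome genes were called in only 6 of 46, all lower (median -0.13), beside the 19.6% of all tested genes called lower. Leaving out 1 library moved some of these numbers: the endoplasmic reticulum list had 15 lower without PreNeut 1, the spliceosome 12 without ProNeut 2, and the proteasome 2 without PreNeut 1 or ProNeut 1 and 3 without ProNeut 2.

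Mitochondrial transcripts divided by the genome that encodes them. All 11 tested genes of the mitochondrial genome fell, with a median of -1.03. ND1, a subunit of complex I, was at 10.28, 10.16 and 10.29 in PreNeut and 8.90, 9.14 and 9.25 in ProNeut (difference -1.14 ± 0.09 SE, adjusted p = 3.1e-10), COX1, a subunit of cytochrome oxidase, at 11.97 ± 0.14 and 11.22 ± 0.23 (SD, n = 3, adjusted p = 1.6e-05), and CYTB, cytochrome b, at 10.91 ± 0.10 and 10.03 ± 0.15 (adjusted p = 5.4e-08). The groups did not overlap in these 3 genes. The 72 oxidative phosphorylation subunits encoded in the nucleus had a median of -0.08, with 10 lower and 3 higher, or 6 lower without ProNeut 2 and 1 higher without PreNeut 2. Of 72 mitochondrial ribosomal proteins, also encoded in the nucleus, 9 were called lower and 1 higher (median -0.18). The number lower was 3 without PreNeut 1 or ProNeut 1 and 5 without PreNeut 3. In all, 18.1% of the oxidative phosphorylation list and 13.9% of the mitochondrial ribosomal list were called. Both are less than the 36.5% of all tested genes, of which 19.6% were lower and 16.9% higher. The share of a library's reads from the mitochondrial genome can also follow RNA quality, and its part in these values was not tested.

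**Figure D4:**
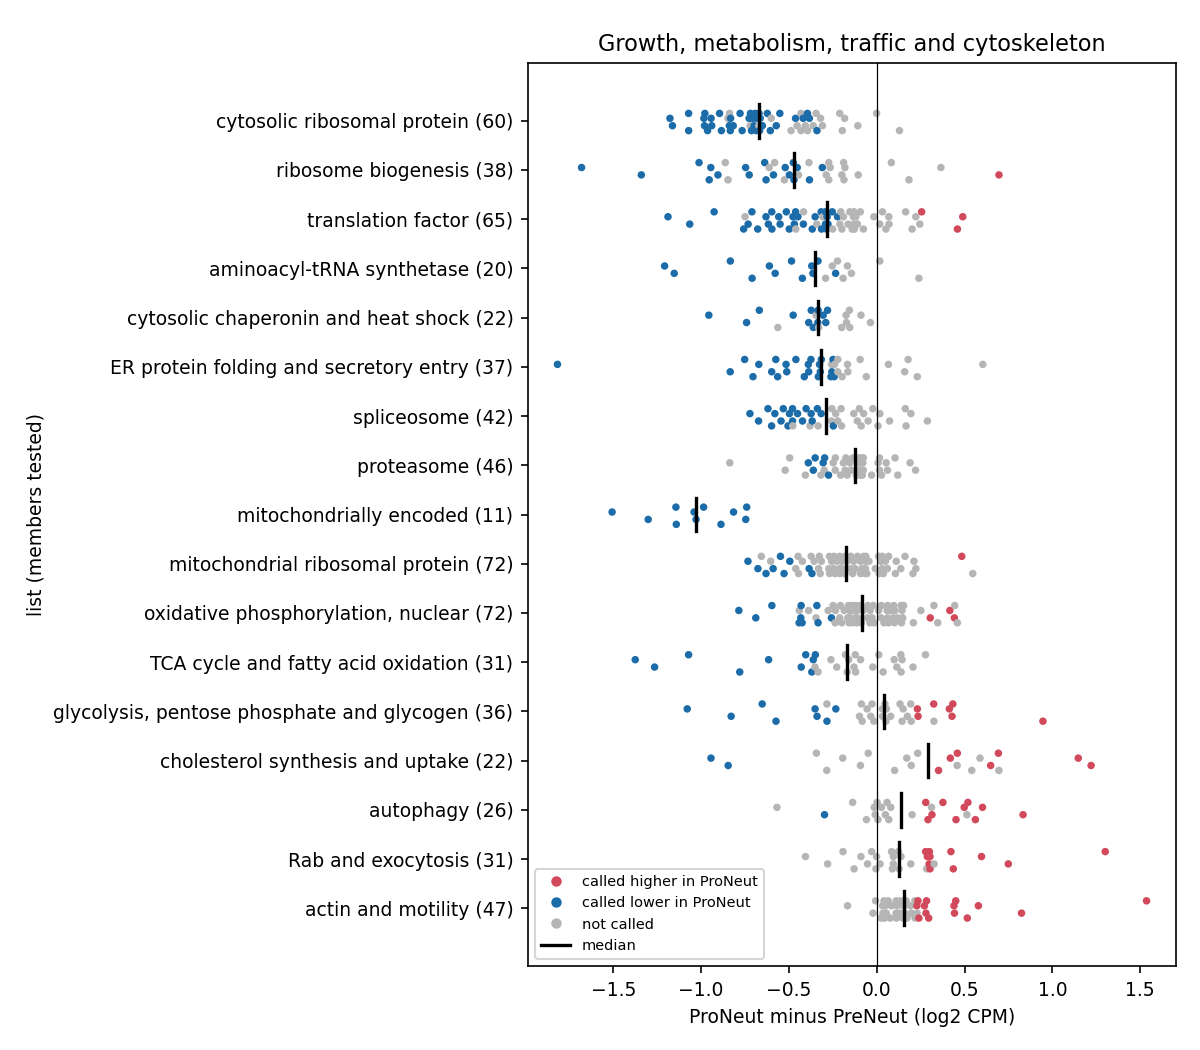
Differences between the subsets (ProNeut minus PreNeut, log2 CPM) for the tested members of 17 lists of growth, metabolism, membrane traffic and cytoskeleton, 1 point per gene, red where called higher, blue where called lower and grey where not called, with a black bar at the median. The ribosomal protein, translation and mitochondrially encoded lists have medians to the left of 0, and the Rab and actin lists have no member called lower.

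Genes of energy metabolism changed in both directions. Of 31 genes of the TCA cycle and fatty acid oxidation, 10 fell and none rose, led by Idh3a (-1.38), the regulated isocitrate dehydrogenase, and Idh2 (-1.26), its NADP-linked counterpart. Of 36 genes of glycolysis, the pentose phosphate path and glycogen, 7 rose and 8 fell, or 3 without PreNeut 1 or ProNeut 2, while 4 rose without PreNeut 2. Slc2a3, the high-affinity glucose transporter GLUT3, rose from 6.60, 6.59 and 6.53 to 7.56, 7.47 and 7.52 (adjusted p = 8.2e-10), while Ldhb, the lactate dehydrogenase subunit of oxidative tissues, fell from 4.03, 3.92 and 4.03 to 2.86, 2.86 and 3.03 (adjusted p = 3.7e-06). Cholesterol genes rose in 7 of 22 and fell in 2 (1 without PreNeut 3, ProNeut 1 or ProNeut 3), with the synthesis enzymes Msmo1 and Hmgcs1 higher by 1.22 and 0.69. Of 27 antioxidant genes 5 rose, or 3 without PreNeut 2, ProNeut 1 or ProNeut 3, and 6 fell. The antioxidant and glycolysis lists were called about as often as all tested genes, of which 16.9% were higher and 19.6% lower. Gstm1, a glutathione S-transferase, fell 4.85-fold, from 4.58, 4.56 and 4.38 to 2.52, 2.63 and 1.55, and Gpx3, the secreted glutathione peroxidase, from 4.39, 4.27 and 4.16 to 2.34, 2.04 and 2.64.

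Of the genes of the cytoskeleton, vesicle traffic and autophagy that passed the test nearly all were higher in ProNeut, whereas lysosomal genes went both ways. Of 47 actin and motility genes, 14 rose and none fell, beside the 16.9% of all tested genes called higher, or 25 rose with the libraries centred on their medians. Capg, which caps actin filaments, rose 2.9-fold, from 5.5, 5.21 and 5.43 to 7.03, 6.76 and 6.96 (adjusted p = 3.6e-12), and Vasp, which elongates them, from 8.53, 8.38 and 8.51 to 9.09, 8.87 and 9.0 (adjusted p = 2.5e-05). Fgr, a Src-family kinase of integrin signalling, rose from 7.63, 7.45 and 7.72 to 8.24, 8.08 and 8.21 (adjusted p = 7.2e-06). Rab and exocytosis genes rose in 11 of 31, with none lower, among them Rab37 (0.75) and the syntaxin Stx11 (0.60). Autophagy genes rose in 10 of 26 and fell in 1, with 6 higher without PreNeut 1 and none lower without PreNeut 1, PreNeut 3, ProNeut 1 or ProNeut 2, led by the initiating kinase Ulk1 (0.83) and by Atg7 (0.60), which activates the conjugation of LC3. Lysosomal genes went in both directions, 8 of 44 higher and 13 lower, beside 16.9% and 19.6% of all tested genes. The proton pump subunit Atp6v0a1 was at 4.64, 4.67 and 4.68 against 5.94, 5.59 and 5.70 (adjusted p = 1.2e-08).

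Pattern recognition genes rose in 11 of 26 and fell in 3, against 16.9% and 19.6% of all tested genes. The rises include Il1b, Tlr5 and Tlr8, which passed the filter through ProNeut alone, so they add no support to the count. With log2 CPM above 4 in at least 3 libraries, 4 of 13 rose and 1 fell. Tlr13, an endosomal receptor of bacterial ribosomal RNA, was at 2.21, 2.23 and 1.91 in PreNeut and 5.14, 4.77 and 5.0 in ProNeut (7.23-fold, adjusted p = 2.5e-13). Tlr2, a receptor of bacterial lipoproteins, went from 1.57, 1.82 and 1.88 to 3.55, 3.40 and 3.42 (adjusted p = 2.5e-07), and Tlr8, an endosomal RNA receptor, from -1.12, -0.81 and -2.53 to 2.65, 2.52 and 2.63, where the PreNeut libraries held 12, 14 and 24 reads (adjusted p = 2.5e-07). In all 3 receptors every ProNeut library lay above every PreNeut library. Tlr5, the receptor of flagellin, had 9, 8 and 0 reads in PreNeut and 93, 86 and 109 in ProNeut, with a difference of 6.0 that was 3.80 without PreNeut 3. Nlrc4, the adaptor of the flagellin inflammasome, went the opposite way, from 3.01, 3.53 and 2.84 to 1.16, 1.89 and 1.32 (adjusted p = 8.7e-06), and so did the DNA sensor Aim2 (-1.13), whose call was lost without PreNeut 2 or ProNeut 1.

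Interferon-stimulated genes rose in 16 of 23 tested and fell in 1, beside 16.9% and 19.6% of all tested genes, with a median of 0.63. In the table are 37 of the list, and the untested ones were below the filter. The rises include Ifitm1, Oasl2 and Rsad2, which passed the filter through ProNeut alone and so add no support to the count or median. With log2 CPM above 4 in at least 3 libraries, 8 of 10 rose and 1 fell, with a median of 0.58. Oas3, an oligoadenylate synthetase whose product activates RNase L, was at 2.21, 2.20 and 1.59 against 4.95, 4.33 and 4.06 (5.45-fold, adjusted p = 9.0e-10). Irf7, a transcription factor of the interferon response, was at 1.64, 1.32 and 1.75 against 3.92, 3.0 and 3.57 (adjusted p = 3.9e-07), and Rsad2, the antiviral protein viperin, at 0.22, -0.31 and -0.29 against 2.32, 1.87 and 2.17 (adjusted p = 3.4e-05). Ifitm1, a membrane protein that restricts viral entry, had the largest difference of the list, 3.88 ± 0.71 SE, but few reads, 8, 11 and 10 in PreNeut and 42, 52 and 121 in ProNeut. The 1 member that fell, Ifit2, which binds viral RNA, was the best expressed of its family here, at 4.98, 4.91 and 5.03 against 4.40, 4.29 and 4.41 (adjusted p = 1.1e-04).

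A word of the interferon-stimulated response element type, searched on both strands, was found in the windows of 18 of 27 genes of the list (66.7%), against 3.99% of all genes with a window and 3.72% of tested genes. Stretches of 62 bases from a pair of the members that rose are shown, with the match in capitals.
Oas3 (chr5:120777699-120777760, minus strand): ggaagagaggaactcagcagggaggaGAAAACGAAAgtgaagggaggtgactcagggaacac
Rsad2 (chr12:26456537-26456598, minus strand): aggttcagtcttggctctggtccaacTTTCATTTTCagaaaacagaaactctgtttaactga

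Immediate early and stress genes, which respond to signalling and to cell handling, rose in 11 of 17, with none lower and a median of 0.76. Fosl2, an AP-1 subunit, went from 4.97, 5.23 and 5.21 to 6.31, 6.12 and 6.18 (adjusted p = 4.5e-09), Klf2, a Kruppel-like factor of myeloid quiescence, from 3.87, 3.23 and 3.33 to 5.45, 4.65 and 5.0 (adjusted p = 7.4e-08), and Dusp1, a phosphatase of stress kinases, from 0.39, 0.87 and 0.38 to 2.24, 2.19 and 2.96 (adjusted p = 3.5e-05). All 3 were without overlap, and the part of handling time in them was not tested. Dusp1 passed the filter through ProNeut alone, so it adds no support to the count or median. Of the 21 cell death genes, 5 rose and 6 fell (3 without ProNeut 1), beside 16.9% and 19.6% of all tested genes. The death receptor Fas (1.22) and the inhibitor of apoptosis Birc3 (0.77) were higher and the survival protein Bcl2l2 (-1.09) lower. Chromatin regulators fell in 9 of 36 and rose in 7, near the 19.6% and 16.9% of all tested genes called lower and higher. Ezh2, the methyltransferase of Polycomb repressive complex 2, went from 6.33, 6.36 and 6.37 to 5.43, 5.69 and 5.68 (adjusted p = 6.1e-07), the de novo DNA methyltransferase Dnmt3a fell by 0.84 on the log2 scale, and the histone demethylase Kdm5b rose by 0.88.

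Other genes with the largest rises at a mean of at least 5 log2 CPM in ProNeut included Trpm2, a calcium channel gated by ADP-ribose, at 0.47, 1.02 and -0.08 against 5.41, 5.11 and 5.01 (26.1-fold, adjusted p = 1.8e-14). Thbs1, the matrix protein thrombospondin 1, was at 2.34, 1.28 and 1.49 against 6.02, 5.5 and 5.36 (15.2-fold, adjusted p = 1.1e-13), and Acvrl1, a receptor of the TGF-beta family known from endothelium, at 1.69, 1.10 and 1.19 against 5.91, 4.91 and 5.08 (15.7-fold, adjusted p = 1.2e-13). Map4k4, a kinase upstream of JNK, rose 12-fold and Bmx, a Tec-family tyrosine kinase, 9.04-fold, from 2.23, 2.43 and 2.19 to 5.47, 5.28 and 5.63. In each of these 5 genes PreNeut was near or below 3 log2 CPM and ProNeut near or above 5. Among the falls, Lair1, an inhibitory collagen receptor, went from 5.39, 5.26 and 5.36 to 3.41, 3.31 and 3.49 (3.83-fold, adjusted p = 2.4e-12).

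Of the 12 tested genes on a list of factors associated with myeloid cells in tumours, 6 rose and 2 fell, or 1 fell when any library except ProNeut 2 was left out. The rises include Arg2 and Prok2, which passed the filter through ProNeut alone, so they add no support to the count. With log2 CPM above 4 in at least 3 libraries, 3 of 9 rose and 2 fell. Osm, the cytokine oncostatin M, rose by 0.99, from 2.84, 3.05 and 3.03 to 3.91, 4.14 and 3.83 (adjusted p = 2.0e-05). Arg2, the mitochondrial arginase, had 0, 1 and 4 reads in PreNeut and 74, 62 and 105 in ProNeut (adjusted p = 2.2e-05). Prok2, a chemokine-like peptide, had no read in the 3 PreNeut libraries and 35, 44 and 78 in ProNeut. With a floor of 3 reads over the pooled PreNeut group, the computed ratio was 164-fold. That ratio leans on PreNeut 3, which gave most of the PreNeut depth but lacked reads in 647 genes seen in PreNeut 1 and 2. It is therefore not a safe lower bound. The call of Prok2 was lost when any 1 of the ProNeut libraries was left out. Antiprotease genes were on both sides: Slpi, the secretory leukocyte protease inhibitor, rose from 4.66, 4.60 and 4.56 to 6.51, 6.18 and 6.50 (adjusted p = 6.2e-13), and Timp2, an inhibitor of matrix metalloproteinases, from 2.35, 2.35 and 2.76 to 5.23, 4.95 and 4.93 (adjusted p = 1.2e-12), while Cst7 fell.

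Among well-expressed genes, differences of moderate size could pass the test. The 10 genes with the smallest p among those that rose by under 1.5 log2 units at a mean of at least 6 included Mmp25, Lgals3 (galectin 3, a carbohydrate-binding protein) and Lilrb4a, an inhibitory receptor. Plbd1, a phospholipase B-like granule protein, rose from 7.93, 7.82 and 8.03 to 9.34, 9.15 and 9.38, a 2.58-fold difference (adjusted p = 3.1e-12). Samhd1, which degrades deoxynucleotides, rose from 5.73, 5.67 and 5.56 to 7.27, 6.90 and 7.15 (2.74-fold, adjusted p = 8.1e-12), opposite to the genes of nucleotide synthesis. Rasgrp4, a Ras exchange factor of myeloid cells, rose 2.3-fold and St3gal5, the sialyltransferase that makes ganglioside GM3, 2.32-fold. The corresponding falls were led by replication-linked genes, Mcm5, Rrm2, Dnmt1, Cdc25a, Slbp and Rrm1 among them, with Atad2, a bromodomain ATPase of replicating chromatin, at 7.36, 7.40 and 7.48 against 6.20, 6.29 and 6.19 (adjusted p = 2.4e-11) and Ssrp1, a subunit of the FACT histone chaperone, at 7.80, 7.73 and 7.82 against 6.88, 6.95 and 6.95 (adjusted p = 4.0e-09). Slc43a3, a purine base transporter, fell from 6.73, 6.84 and 6.78 to 5.60, 5.62 and 5.68 (adjusted p = 9.1e-11). In all of these the SD within a group was at most 0.21, and the groups did not overlap. Both follow from picking the smallest p, so they add no support.

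Many genes that mark other lineages fell below the filter, and the summed levels of several of these lists differed between the subsets without overlap. Of the basophil and mast cell genes, Prss34, a basophil protease, was at 3.66, 3.82 and 3.60 in PreNeut and 0.05, -1.48 and -0.20 in ProNeut (18.9-fold lower, adjusted p = 3.9e-10). Mcpt8, another basophil protease, was at 3.18, 3.09 and 2.97 against -0.99, -0.44 and -1.99 (18.6-fold, adjusted p = 8.8e-09), and Cpa3, a mast cell carboxypeptidase, at 1.85, 2.44 and 2.62 against -3.32, -0.64 and -0.74 (14.6-fold, adjusted p = 1.2e-05). Hdc, histidine decarboxylase, which neutrophil precursors also express, went the other way, from 7.01, 6.81 and 6.96 to 7.65, 7.29 and 7.47 (adjusted p = 5.0e-05). Of 8 list genes in the table, 4 were tested, and their summed level was 143 to 157 CPM in PreNeut and 159 to 203 in ProNeut, most of it Hdc. Fcer1a, the IgE receptor chain that defines these cells, had 1, 0 and 0 reads in PreNeut and 0, 0 and 0 in ProNeut and was not tested.

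Erythroid genes were higher in ProNeut, 6 of 9 tested with 1 lower, among 28 in the table. Car1 and Car2, carbonic anhydrases, were higher in ProNeut, Car1 at -0.48, -1.42 and -0.37 against 3.66, 3.86 and 3.76 (adjusted p = 4.1e-11) and Car2 at 1.38, 0.26 and 1.96 against 4.33, 4.44 and 4.66 (adjusted p = 5.5e-10). Ermap, an erythroid membrane protein, was at -1.12, -1.58 and -0.25 against 2.68, 2.57 and 2.43 (adjusted p = 3.1e-07). The erythroid master factor Klf1 had 20, 1 and 0 reads in PreNeut and 43, 39 and 82 in ProNeut, and the alpha globin Hba-a1 2, 1 and 35 against 2, 2 and 3; both were below the filter. The summed level of the list was 194 to 227 CPM in PreNeut and 298 to 337 in ProNeut. Car1 and Ermap passed the filter through ProNeut alone, and Prss34, Mcpt8 and Cpa3 through PreNeut alone. The part of erythroid or basophil cells in these values was not tested.

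**Figure D5:**
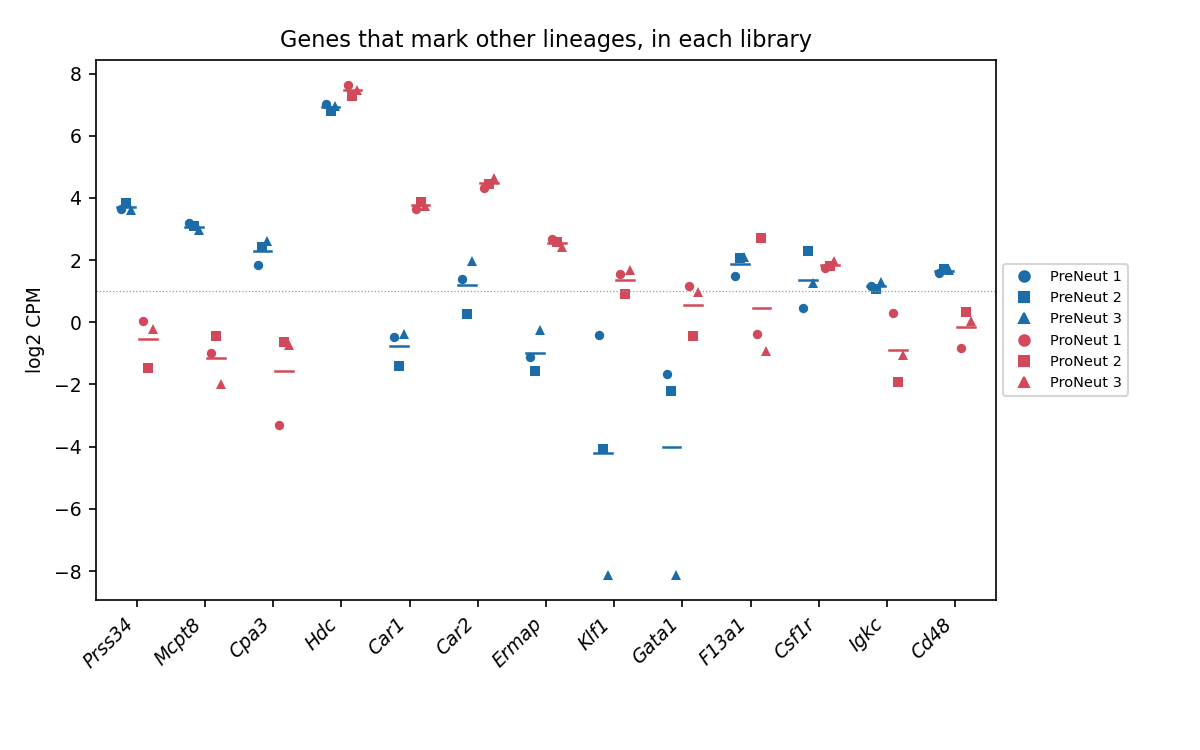
Log2 CPM of 13 genes of other lineages in each of the 6 libraries, PreNeut in blue and ProNeut in red, with a bar at the mean of each group and a dotted line at the filter of 1 log2 CPM. Basophil proteases lie above the filter in PreNeut and below it in ProNeut, Car1 and Ermap show the reverse, and the points at about -8 are the 0 reads of PreNeut 3 for Klf1 and Gata1.

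Monocyte genes were called in 2 of 7 as higher and 2 as lower, and the summed level of the list was 493 to 552 CPM in PreNeut and 546 to 628 in ProNeut. F13a1, a coagulation factor chain of monocyte precursors, was at 1.48, 2.08 and 2.10 against -0.38, 2.70 and -0.94, again with ProNeut 2 above the other ProNeut libraries (adjusted p = 0.053). Vcam1, an adhesion molecule of marrow macrophages and stroma, fell from 5.71, 5.59 and 5.42 to 4.38, 4.44 and 4.38 (adjusted p = 3.8e-09). Lymphoid genes were few: Ighm, the IgM heavy chain locus, fell from 6.41, 6.34 and 6.20 to 5.84, 5.79 and 5.78 (adjusted p = 7.0e-05) and Igkc, the kappa light chain, from 1.16, 1.08 and 1.31 to 0.31, -1.93 and -1.05 (adjusted p = 0.0067), while the B cell receptor gene Cd79a was below the filter. The summed level of the B lymphoid list was 88 to 98.6 CPM in PreNeut and 68 to 76.7 in ProNeut, and that of the T, NK and innate lymphoid list 26.4 to 34.5 and 13.4 to 15.8. Nkg7, the called member of the latter that fell, is on the azurophilic granule list as well. Of 3 tested B lymphoid genes, 2 were called lower and 1 higher. Of 2 tested T, NK and innate lymphoid genes, 1 was called lower and 1 higher. The stroma and endothelium list summed to 152 to 163 CPM in PreNeut against 63.6 to 68.4 in ProNeut, with 2 of 4 tested members lower and 1 higher. Its lower members were Vcam1 and Igfbp4, an insulin-like growth factor binding protein, which was well expressed and fell from 6.72, 6.64 and 6.72 to 5.09, 5.27 and 5.15 (adjusted p = 1.2e-12). Col1a1, a collagen I chain of stromal cells, rose without overlap from 0.93, 0.60 and 1.04 to 2.02, 1.94 and 2.31 (adjusted p = 0.0026). Of the 2 tested members of the eosinophil list, 1 was called higher and 1 lower. The summed level of the list was 26.2 to 31.5 CPM in PreNeut and 53.1 to 62.1 in ProNeut. Most of it was Ear2, a ribonuclease of a family of close copies, which rose from 4.59, 4.22 and 4.21 to 5.55, 5.56 and 5.77 (adjusted p = 3.0e-09). The plasmacytoid dendritic cell list, which shares Irf7 with the interferon-stimulated genes, summed to 20.9 to 22.6 CPM in PreNeut and 36.6 to 42.9 in ProNeut, with 2 of 3 tested members higher. The part of such cells in these values was not tested. Cd48, a marker of multipotent progenitors, fell from 1.57, 1.70 and 1.68 to -0.81, 0.34 and 0.04 (adjusted p = 0.0016), whereas Cd34 was below the filter.

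These calls rest on 3 libraries a group and on a spread taken from them. When the spread was estimated from all 15 libraries together, 80 genes were called higher and 30 lower, and of the 162 called genes named here 121 lost their call, Mcm6, Ly6g and ND1 among them, with no change of direction. The other 9 libraries held 810794 to 1444403 reads, 55.6% to 69.5% of them on genes without a symbol against 0.102% to 0.146% in these 6, and ND6 took 58.6% to 93.2% of their mitochondrial reads against 0.144% to 0.203%. The part of these differences in the lost calls was not tested. Aim2, COX1, CYTB, Ifit2, Mad2l1, ND6, Nlrc4, Pola1, Polr1a, Slc11a1 and the genes named as not called were singled out after their values were seen. The strand setting of the counting is not given in the sources used here. Reads of Prtn3, Mpo, Ccne2, Acvrl1, Thbs1, Paics and Ube2c therefore cannot be told apart from those of genes that overlap them on the opposite strand.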

How the data were processed

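The deposited values were log2 CPM per gene, and the submitters' processing notes name FastQC 0.11.7, featureCounts 1.22.2, edgeR 1.30.5 and the build GRCm38. Aligner, annotation and strand setting: not given in the sources used here. The values equalled log2 of reads plus 0.5, scaled to CPM with a library size above the table's total, and whole reads (tolerance 0.001) were recovered for all values. Because the unit is log2, ProNeut minus PreNeut was tested with limma 3.58.1 (lmFit, eBayes with trend, 2-sided, R 4.3.3) on 6 libraries, without a replicate block, and calls were made at a Benjamini-Hochberg adjusted p under 0.05 over all 8855 genes tested; the test was checked on simulated data. Genes without a symbol (503 of 14801) and 5443 below the filter were left out. Residuals of same-numbered libraries correlated at 0.013, 0.070 and 0.062, so the numbers were not taken as pairs. Fold changes are ratios of 2 to the mean log2 CPM; for genes with few reads they depend on the added 0.5 and on depth, and can come out too small or too large. Named genes were, in each direction, the 10 largest called differences at a mean of at least 5 in the higher group without overlap, the 10 smallest p under 1.5 log2 units at a mean of at least 6, up to 5 members of each list by size, and markers. Members and lists were chosen with earlier results of these data known. Alternatives were other filters, scalings, prior counts, library weights, a replicate block, all 15 libraries, voom weights (added after seeing the data) and leaving out each library. Antisense partners were genes of GENCODE M21 that share at least 50 exon bases on the other strand. Some list members are not reported here by name.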

Additional observations from a re-analysis of the deposited data

How the results depend on the processing

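The numbers of genes called were 1498 higher and 1738 lower. With all 15 libraries sharing the spread they were 80 and 30 (the cause was not tested), and with a minimum of 1 log2 unit 320 and 350, by construction. With log2 CPM above 4 in at least 3 libraries fewer genes were tested, and 1069 were called lower and 1088 higher. Leaving out 1 library gave 1165 to 1493 higher and 1427 to 1663 lower. Without a filter the numbers were 1523 and 1562, with median centring 1795 and 1500, with quantile normalization 1496 and 1629, with TMM 1574 and 1694, with a prior count of 5 1498 and 1756, with library weights 1623 and 1846, and with voom weights 1512 and 1676. The planned edgeR and DESeq2 fits were not run because the deposited unit is log2. Of the 162 called genes named in the text, 157 were called in all 6 fits that left out 1 library and 159 under all 3 other scalings. The exceptions were Ltf, Lcn2, Mad2l1, Aim2 and Prok2 for the former, and Ltf, Lcn2 (quantile normalization) and Mad2l1 (median centring) for the latter. No named gene changed direction in any of these fits.

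The labels number the libraries 1 to 3 in both subsets. With the replicate number as a block, 1670 genes were called higher and 1890 lower, and no call of a named gene was lost. The specific granule list then had 12 members higher, the actin list 24 and the NADPH oxidase list 6. The residuals of PreNeut 1 correlated at 0.080 with those of ProNeut 3 and at 0.013 with those of its own number, so not every library was closest to its own number.

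The median SE was 0.26 for genes at or below 3 log2 CPM. Genes with few reads in PreNeut 3 carry large fitted differences, as for Clec4d and Tlr5.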
